A study of Mus musculus with 82 samples.

Results

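Sparcl1, Mepe, Ces1c, Camkmt and Ripor3 are 5 of the 24757 RefSeq genes counted here, and they were chosen by their measured values, an extreme burst size or an extreme correlation of their transcription with another gene across single cells. Their burst sizes and correlations are therefore given as descriptions. The measurement is scGRO–seq, which labels RNA under synthesis in nuclei with clickable nucleotides, joins each RNA to a barcoded DNA adaptor through its 3′ end and sequences it. The position of that end gives the site of RNA polymerase on the genome, and each unique molecular identifier (UMI) stands for 1 captured RNA molecule. All samples came from V6.5 mouse embryonic stem (ES) cells, a line from the embryo of a cross of C57BL/6 and 129/sv mice, grown untreated in serum with LIF on gelatin. The 82 samples comprised 76 scGRO–seq libraries, each a plate of barcoded nuclei, 4 inAGTuC libraries, which apply the same chemistry to pools of intact nuclei, and 2 AGTuC libraries, which apply it to bulk nuclei. No group differed in genotype or treatment, so that the comparisons are between assays, batches and libraries.

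Sparcl1 encodes a secreted glycoprotein of the extracellular matrix (hevin) known from astrocytes and blood vessels. Mepe encodes a phosphoglycoprotein of bone and tooth matrix and lies in the same gene cluster as Sparcl1. Ces1c encodes a carboxylesterase that the liver secretes into plasma, Camkmt encodes the enzyme that methylates a lysine of calmodulin, and Ripor3 belongs to a small gene family with Ripor1 and Ripor2. Genes are transcribed in bursts, in which several polymerases follow each other along the gene. Several nascent RNAs of 1 gene in 1 cell are therefore read as a burst, and 2 genes with nascent RNA in the same cells are read as co-transcribed. Polymerases in productive elongation are spread along the gene, so that nascent 3′ ends usually scatter over the gene body.

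In single cells, most UMIs in the 10000 bp that follow the first 500 bp of each of the 5 genes stood at 1 intronic nucleotide. The sense strand around each of these positions in the GRCm38 genome (the mm10 coordinates of the files) is shown because the letters at the 3′ ends are what the 5 positions share. The 6 bases in capitals are the reference bases at the aligned 3′ end, with the most frequent 3′ end at the last capital.

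Sparcl1, chr5:104107935-104107984, minus strand: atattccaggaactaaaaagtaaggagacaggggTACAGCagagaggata
Mepe, chr5:104333535-104333584, plus strand: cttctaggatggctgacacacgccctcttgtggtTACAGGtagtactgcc
Ces1c, chr8:93123025-93123074, minus strand: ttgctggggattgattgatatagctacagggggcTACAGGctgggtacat
Camkmt, chr17:85094061-85094110, plus strand: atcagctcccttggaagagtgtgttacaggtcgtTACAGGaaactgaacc
Ripor3, chr2:168002607-168002656, minus strand: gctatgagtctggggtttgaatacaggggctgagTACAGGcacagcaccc

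The 3′ end followed TACAGG in Mepe, Ces1c, Camkmt and Ripor3, and TACAGC, which shares 5 of those 6 letters, in Sparcl1. Ces1c, Camkmt and Ripor3 held TACAGG 2 times within the 50 bases shown. In these genes the other copy opens the stretch of the most frequent read length given below. In the reference genome that stretch thus begins and ends with TACAGG. The deposited lines hold positions without read sequences, so the letters of the reads themselves were not seen. Between 2 genes, 7 to 13 of the 16 reference bases that end at the position were alike, the capitals included, with 13 between Ces1c and Camkmt. The 3′-terminal stretch of the most frequent read length (16 bases in Sparcl1, Ces1c and Camkmt, 19 in Mepe and Ripor3) occurred 1 time in the genome for each gene. The last 12 bases alone occurred 37 times for Camkmt, 234 for Sparcl1, 263 for Ces1c, 386 for Ripor3 and 674 for Mepe.

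None of the 5 positions lay in an exon, under another gene, or within 50 bp of an annotated small RNA gene. In Sparcl1 (chr5:104079108-104114088, minus strand) the position was base 104107945 in intron 1. In Mepe (chr5:104325329-104338611, plus strand) it was base 104333574 in intron 2. In Ces1c (chr8:93099015-93131283, minus strand) it was base 93123035 in intron 5. In Camkmt (chr17:85090626-85458589, plus strand) it was base 85094100 in intron 1, and in Ripor3 (chr2:167980164-168010618, minus strand) it was base 168002617 in intron 2. Repeat masking covered 22% of the 50 bases of Ripor3 and none of those of the other 4 genes.

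Whole-series figures set the scale. One scGRO–seq library of batch Exp261 held the same reads as an inAGTuC library of that name and was left out, so that 81 samples were counted. Of the 20196981 reads in the 53 libraries of the 10 batches used here for single-cell values, which are those that the study's plots of batches name, 28.9% had the same position, strand, barcode and UMI as a read of another library and were dropped. After this step the libraries of all assays held between 7043 and 4755740 reads. The cells kept were 2518 in 35 libraries with a mean of 4622 UMIs. Each of the 8 ES cell marker genes was detected in every assay, from Esrrb at 1.12 to Tdgf1 at 6.74 CPM per kb in the 10 batches (CPM, counts per 1000000 reads of the library). The liver markers Alb, Apoa1, Ttr and Fgb lay between 0.0770 and 0.266 on that scale in the same batches, the bone and tooth markers Ibsp, Dmp1, Dspp and Bglap between 0 and 0.0803, and the astrocyte markers Gfap, Aqp4 and Slc1a2 between 0.0518 and 0.220. In AGTuC the ES cell markers lay between 3.64 and 39.9. The liver markers reached 2.41 there (Apoa1), the bone and tooth markers 0.294 and the astrocyte markers 0.116. Of the neural markers in AGTuC, Sox1 was at 13.8, Neurog2 at 0.115 and Pax6 at 0.00485.

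To locate the signal, the 3′ ends of sense reads were placed in 50 bp bins counted from the start of each gene, over the 10000 bp that follow its first 500 bp (the burst window). In kept cells, Sparcl1 had 4113 UMIs in 864 cells and 4103 of them (99.8%) in the bin that begins 6100 bp from its start. Mepe had 421 UMIs in 271 cells, of which 412 (97.9%) fell in the bin at 8200 bp. In Ces1c, 1468 of 1537 UMIs (95.5%) from 504 cells fell in the bin at 8200 bp. In each of these 3 genes a single bin of the window held over 95% of the molecules.

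Camkmt had 1458 UMIs in 498 cells and 1436 of them (98.5%) in the bin at 3450 bp. Ripor3 had 338 UMIs in 231 cells and 307 of them (90.8%) in the bin at 8000 bp. What stood outside the top bin came to 10 UMIs for Sparcl1, 9 for Mepe, 22 for Camkmt, 31 for Ripor3 and 69 for Ces1c. In Ces1c, 66 of these 69 lay in the next bin, at 8250 bp, and in Ripor3 14 of 31 lay in the bin before, at 7950 bp. By the choice of the members such concentration is no independent result, and it is set beside the other genes as a description. Of the 2468 genes with window UMIs in at least 100 kept cells, 83 (3.36%) had over 50% of their UMIs in 1 bin and 26 (1.05%) over 90%, the 5 genes included in both counts. The median top bin over the 2468 genes held 4.30%.

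**Figure D1:**
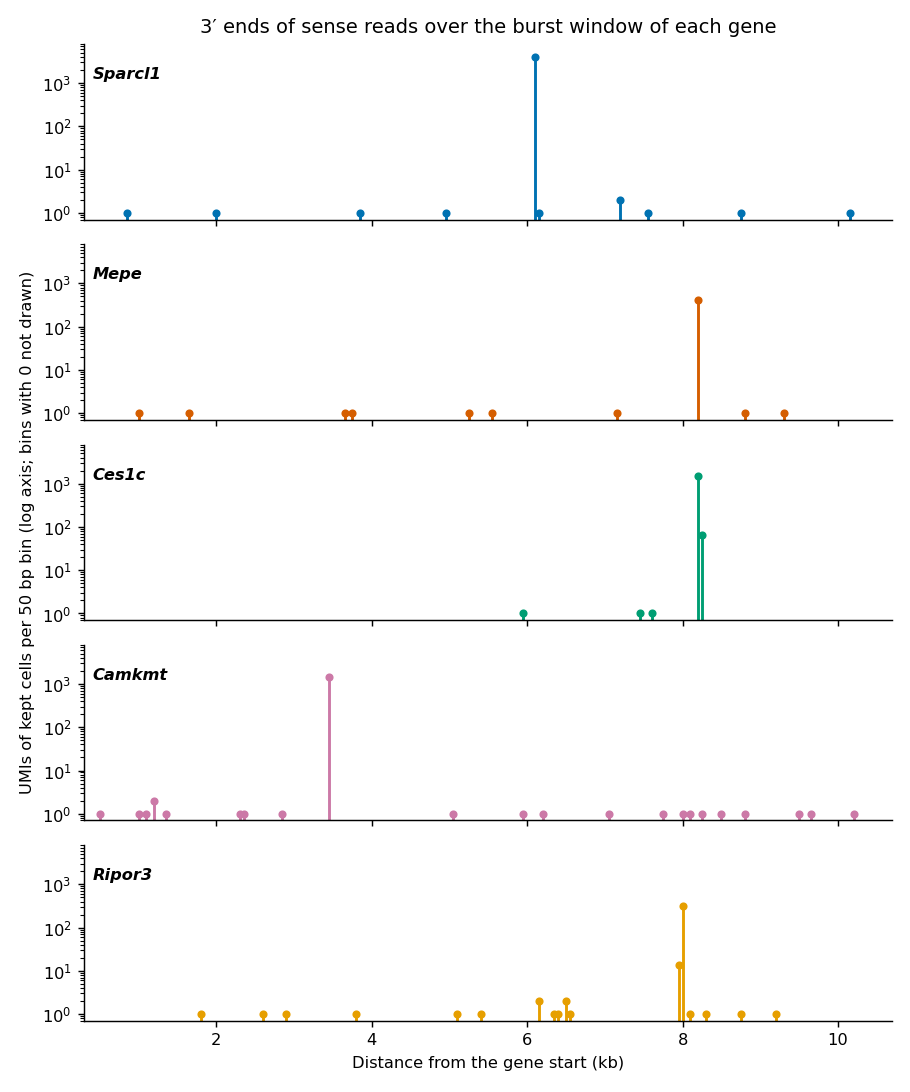
UMIs of kept cells in each 50 bp bin (log-scaled vertical axis, bins with 0 not drawn) against the distance from the gene's start (horizontal axis, kb) over the burst window, with 1 panel for each gene. In every panel a single bin stands far above the rest, with 4103 UMIs in Sparcl1, 412 in Mepe, 1468 in Ces1c, 1436 in Camkmt and 307 in Ripor3, and only Ces1c (66) and Ripor3 (14) have another bin above 2 UMIs.

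Within the top bin the ends stood at 1 nucleotide. That nucleotide held 99.5% of the UMIs of the bin in Sparcl1, 99.2% in Camkmt, 98.5% in Ces1c, 89.6% in Mepe and 82.1% in Ripor3. The reads were short. A length of 16 bases made up 97.2% of the top-bin reads of Sparcl1, 94.8% of those of Ces1c and 93.5% of those of Camkmt, while 19 bases were most frequent in Ripor3 (75.2%) and Mepe (32.8%). Among the reads outside the bin, the median length was 44 bases in Camkmt, 23 in Sparcl1, 18 in Mepe, 17 in Ripor3 and 15 in Ces1c.

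Over the whole span, Camkmt differed from the other members. Its gene is 367964 bp long, and the top bin held 43.2% of its 3324 sense UMIs, the next bins lying 85300 bp from the start with 157 UMIs and 187800 bp from the start with 32. The 3′ ends followed ATTGTA at 85300 bp and TACAGG at 187800 bp. Outside its top bin Camkmt was transcribed at 158 CPM in the 10 batches, 159 in the other scGRO–seq batches, 152 in inAGTuC and 63.5 in AGTuC. The other 4 genes had 1.39 (Mepe) to 5.78 (Ripor3) CPM of sense reads outside the top bin in the 10 batches. These values are not scaled for the length of the gene. Per kb of gene, Camkmt was at 0.431 CPM outside the bin in these batches. On that scale Ripor3 was at 0.190, Ces1c at 0.173, Mepe at 0.105 and Sparcl1 at 0.0779. The levels of Ces1c, Camkmt and Ripor3 include further bins with most of their kept-cell UMIs in batch Exp260b. These held 66 UMIs at 8250 bp in Ces1c (98.5% in Exp260b), 157 at 85300 bp in Camkmt (84.7%) and 14 at 7950 bp in Ripor3 (100%). Most Ces1c reads outside the top bin stood in that bin.

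The UMIs of the top-bin reads were compared within and between cells. The top-bin reads of Sparcl1 carried 938 different UMI sequences, those of Camkmt 677, Ces1c 658, Mepe 298 and Ripor3 238. The largest number of UMIs of 1 cell in the bin was 28 for Sparcl1, 19 for Camkmt, 18 for Ces1c, 10 for Mepe and 5 for Ripor3. Among pairs of Sparcl1 reads of the same cell, 0.00592% of 16879 had UMIs that differed at no more than 1 base, against 1.93% of pairs from different cells. The corresponding shares were 0.114% against 2.45% in Ces1c and 0.362% against 2.73% in Mepe, and 0 of 2825 pairs in Camkmt and 0 of 129 in Ripor3 against 2.09% and 2.59%. The deposited reads had already been collapsed by position and UMI, which leaves fewer near-identical UMIs within a cell. The low shares within cells therefore cannot show that the reads are separate molecules.

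To ask whether the reads of the bins were placed less surely than others of the same gene, mapping quality, which the choice of members had not used, was compared over batches. It was tested for all 2468 genes by an exact two-sided sign-flip test on the difference between top-bin and other sense reads of each batch. In the pooled kept cells the mean mapping quality in the window was 33.1 in the top bin and 32 outside it for Sparcl1, 33.2 and 31.3 for Ces1c, 33.4 and 31.6 for Camkmt, 27.2 and 25.3 for Mepe, and 23.5 and 27.8 for Ripor3. Over batches the top-bin reads differed by 2.59 ± 5.06 (SD, n = 6 batches) in Sparcl1, with an exact p = 0.219 and an adjusted p of 0.903. The difference was 9.05 ± 4.98 (SD, n = 4) in Ces1c with an exact p = 0.125, and −5.28 ± 2.84 (SD, n = 3) in Ripor3 with an exact p = 0.25. Camkmt and Mepe differed by 0.83 ± 3.80 and 1.03 ± 6.78 (SD, n = 6 each), with exact p-values of 0.625 and 0.75.

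No member passed the test, and none of the 2468 genes did (0.00%), with 85 at an unadjusted p under 0.05. The smallest p that 6 batches allow is 0.03125, and 4 and 3 batches allow 0.125 and 0.25, so that no test on this few batches could pass the adjustment over all genes. Reads with a mapping quality under 10 made up 0.414% of the top bin in Sparcl1, 1.32% in Camkmt, 1.91% in Ces1c, 3.16% in Mepe and 14% in Ripor3.

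The pile-ups were spread very unequally over batches. In kept cells of batch Exp260b, which held 530 of the 2518 cells (21%) in 6 plates, the top bin gave 3527 of the 4103 UMIs of Sparcl1, 1438 of 1468 for Ces1c, 1394 of 1436 for Camkmt, 395 of 412 for Mepe and 301 of 307 for Ripor3. In this batch 96.4% of the cells had a UMI in the Sparcl1 bin, 88.3% in the Ces1c bin, 83.0% in the Camkmt bin, 46.4% in the Mepe bin and 38.7% in the Ripor3 bin. Of 1000000 UMIs of the batch, this came to 1457 for Sparcl1, 594 for Ces1c, 576 for Camkmt, 163 for Mepe and 124 for Ripor3. The next highest of the 10 batches reached 111, 47.4, 64.1, 13.9 and 2.15, respectively.

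Batches Exp156, Exp160, Exp208 and Exp211 had 0 UMIs in the bins of all 5 genes. The other 5 batches lay in between. Sparcl1 had 487 UMIs in Exp236, 40 in Exp260, 20 in Exp263, 16 in Exp264a and 13 in Exp246. Ces1c had 17 in Exp260 and from 1 to 8 in the other 4 batches, Camkmt 23 in Exp260 and from 0 to 10 in the others, and Mepe at most 9. Ripor3 had 4 in Exp236, 2 in Exp264a and 0 in the rest.

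Within Exp260b all 6 plates carried each of the 5 bins. With all barcodes counted, Sparcl1 was at 618, 881, 1320, 1690, 1822 and 1870 CPM in its top bin in the 6 plates, and Camkmt at 312, 513, 611, 616, 622 and 649. Mepe ran from 68 to 237, Ripor3 from 52.5 to 173 and Ces1c from 492.9 to 862. Plate c13 was the lowest for Sparcl1, Camkmt, Mepe and Ripor3, but it was the second highest for Ces1c at 683. Barcodes below the cell filter also had reads in the bins of Sparcl1 and Ces1c in all 6 plates, whereas Camkmt had none there in c14, Mepe none in c13, c14 and c16, and Ripor3 none in c13, c15 and c16. The Sparcl1 bin was at 622 to 1858 CPM in kept cells of these plates and at 491 to 3419 in the other barcodes, the latter resting on 5 to 35 reads a plate. This comparison was added after the values by batch were seen.

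**Figure D2:**
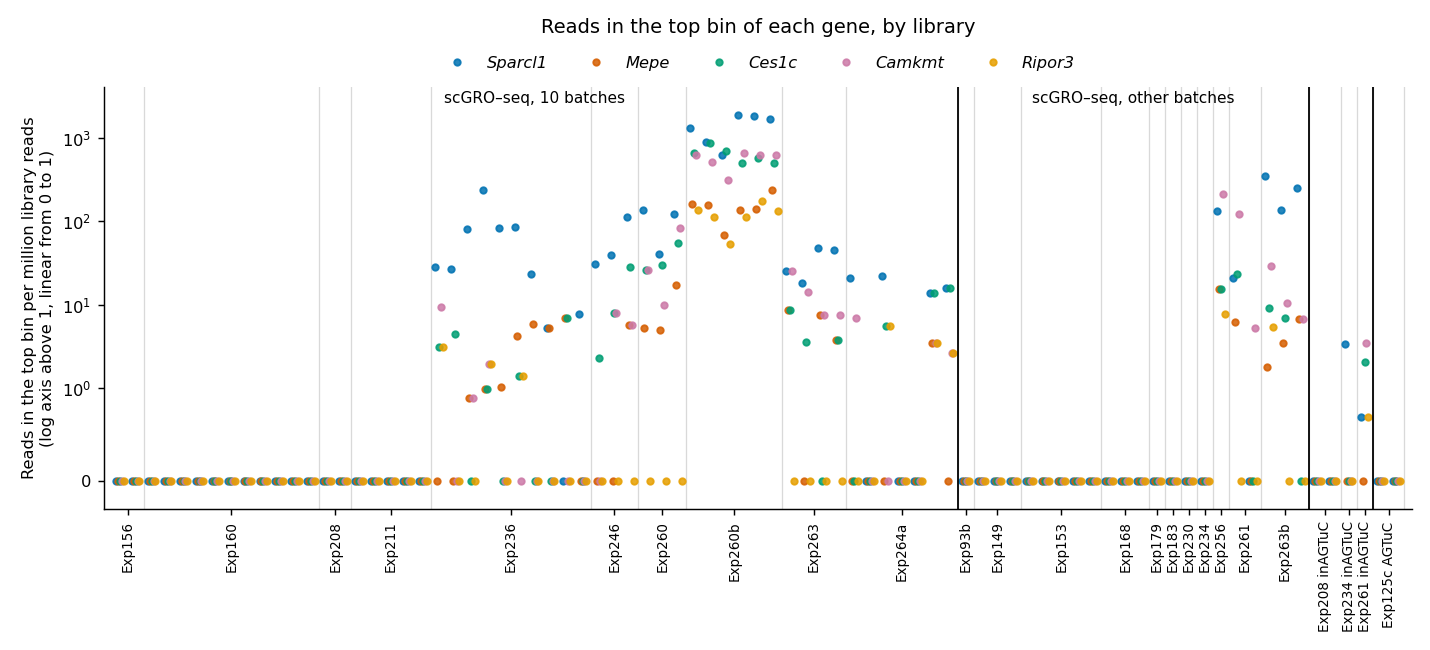
Reads in the top bin of each gene in counts per 1000000 library reads (vertical axis, logarithmic above 1 and linear from 0 to 1), with 1 point for each gene and library and the libraries ordered by assay and batch. The 6 libraries of Exp260b are the highest for every gene, Exp156, Exp160, Exp208 and Exp211 are at 0, and so are both AGTuC libraries.

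Libraries that had not been used to choose the members were examined next. Of the 11 scGRO–seq batches outside the 10, the bins held reads in Exp256, Exp261 and Exp263b and in none of the other 8. Sparcl1 had 52 top-bin reads in Exp256, 10 in Exp261 and 269 in Exp263b. Camkmt had 82, 60 and 20 in the same order, Ces1c 6, 11 and 7, Mepe 6, 3 and 3, and Ripor3 3, 0 and 3. The order among genes changed from batch to batch, Sparcl1 leading in Exp263b and Camkmt in Exp256 and Exp261, and Ripor3 had no read in its bin in Exp261.

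In the 4 inAGTuC libraries Sparcl1 had 6 top-bin reads, Camkmt 5, Ces1c 3, Ripor3 1 and Mepe 0. Those of Camkmt, Ces1c and Ripor3 all stood in library Exp261_c16, and 5 of the 6 of Sparcl1 in Exp234_c11. Exp261_c16 is the library whose reads were deposited under both assays, so that its assay is uncertain, and without it the bins of these 3 genes had 0 inAGTuC reads. The 2 AGTuC libraries, with 6987577 reads, had 0 reads in every one of the 5 bins, which allows up to 0.429 CPM (3 counts, counting error only). That limit counts reads of any length. Of the AGTuC reads, 13855 (0.198%) were at most 20 bases long, as most top-bin reads were, against 59.8% of the reads in Exp260b. In the 10 batches the same bins held 299 CPM for Sparcl1, 108 for Ces1c, 104 for Camkmt, 29.8 for Mepe and 21.9 for Ripor3. Outside the bins, reads of AGTuC covered Camkmt (444 sense reads), Ripor3 (17) and Sparcl1 (14), whereas Mepe and Ces1c had 0 sense reads anywhere in the gene.

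Antisense reads were counted over whole genes, since the bins were defined on sense reads. Sparcl1 had 34 antisense reads in the 10 batches against 39 sense reads outside the bin, and Mepe had 26 against 20. Ripor3 had 135 antisense reads against 83 sense reads outside the bin, and Camkmt 996 against 2271. In AGTuC, 59 of the 76 reads on Ripor3 were antisense (77.6%). Ces1c had 17 antisense reads against 80 sense reads outside the bin, most of the latter in the next bin.

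Gene counts in the libraries that did not choose the members were compared in 1 limma voom fit over 2 AGTuC libraries, 4 inAGTuC libraries and the 11 outside scGRO–seq batches, each batch summed. Camkmt was at 59.6 and 65.4 CPM in AGTuC and at 96.5, 108, 160 and 225 in inAGTuC. Both AGTuC values lay below all 4 inAGTuC values, as they did for 14.6% of the 14718 genes tested. The log2 fold change of AGTuC against inAGTuC was −1.16 (SE 0.57, limma adjusted p = 0.134), below the median of 0.80 over all genes but short of the threshold (−0.91 and adjusted p = 0.276 without Exp261_c16), in a comparison that called 21.5% of the genes. Both AGTuC libraries belong to batch Exp125c, which holds no other library, so assay and batch cannot be told apart in this comparison.

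Sparcl1 was at 0.896 and 2.52 CPM in AGTuC and at 3.21, 3.45, 3.66 and 13 in inAGTuC, again with AGTuC below all inAGTuC libraries, with a log2 fold change of −1.63 (SE 1.34, limma adjusted p = 0.373). Ripor3 was at 1.79 and 2.73 CPM in AGTuC and at 0, 1.22, 8.27 and 13 in inAGTuC, so that the groups overlapped, with a log2 fold change of −0.77 (SE 0.91, limma adjusted p = 0.539). No member was called, nor with batch as a random block, added after the values were seen, which called 1310 genes. With no minimum count, Mepe and Ces1c entered the fit and passed as lower in AGTuC, in a fit that called 2333 of 22809 genes lower (10.2%). They had 0 reads there against 5 and 14 in inAGTuC. They were thus tested only through the groups where they were higher, and they are given by these values alone. Sparcl1 and Ripor3 had 43 and 49 reads over the AGTuC and inAGTuC libraries and reached the minimum of 50 only with the reads of the outside batches. Mepe and Ces1c had fewer than 50 reads over all these samples and were not tested in the main fit. With all deposited reads Ces1c entered as well and passed as lower, with the same limit. Ces1c had 0 reads in AGTuC against 8.04, 2.44, 0.684 and 4.14 CPM in the 4 inAGTuC libraries, and Mepe 0 against 0.689 to 1.61. In these bulk libraries fewer cells of a type and less RNA per cell cannot be told apart. The labels do not say that libraries of a group came from separate cultures, so the p-values measure the spread between these libraries, which may be technical.

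In the 11 outside scGRO–seq batches Camkmt was at 70.5 CPM at the lowest, 141 at the median and 350 at the highest, a range that held all 4 inAGTuC values. The log2 fold change against inAGTuC was 0.18 (SE 0.41, limma adjusted p = 0.813), and it turned to −0.05 with the top bin left out and was 0.44 without Exp261_c16. None of the 14718 genes was called (0.00%), with 3409 at an unadjusted p under 0.05, 240 called by limma-trend and 3 after upper quartile scaling. Batches Exp234 and Exp261 hold both an outside scGRO–seq library and an inAGTuC library. With batch as a block, added after the values were seen, 24 genes were called, and with batch as a random block 872, among neither of which was Camkmt (log2 fold change 0.24 in both, limma adjusted p = 0.777 and 0.671).

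Within these batches Camkmt was at 79.3 CPM in the scGRO–seq and 96.5 in the inAGTuC library of Exp234, and at 350 and 225 in Exp261. Sparcl1 and Ripor3, which reached the minimum through the outside batches, are given by their values alone. Sparcl1 was at 0 in 6 of the 11 batches and at 277 CPM in the highest. Ripor3 was at 0 in 3, at a median of 5.68 and at a highest value of 23 CPM, against 0 to 13 in the inAGTuC libraries.

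The neighbours and relatives of the 5 genes were counted from fixed lists in the same fit. Of 9 genes around Sparcl1 and Mepe, 5 were tested and 0 passed in either direction for AGTuC against inAGTuC, with a median log2 fold change of 0.73 against 0.80 over all genes, of which 12.5% were called higher and 8.97% lower. Spp1, which encodes the bone and ES cell phosphoprotein osteopontin of the same cluster as Mepe, had 117 reads in AGTuC, whereas the cluster members Dspp, Dmp1 and Ibsp had 0. Of 6 neighbours of Camkmt, 4 were tested and 0 passed, with a median of 0.71. Srbd1 had the most reads of these in the 10 batches, 2504.

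Of the 9 listed genes of the Ripor family and around Ripor3, 8 were tested. None was called lower in AGTuC, against 8.97% of all genes. Pard6b, a cell polarity gene, was called higher, as were 12.5% of all genes. Its log2 fold change was 2.10 (SE 0.60, limma adjusted p = 0.0123), and it was not called with batch as a random block (limma adjusted p = 0.0697). Mocs3, which acts in molybdenum cofactor synthesis, is not counted as called. It had 106 reads in AGTuC, 9 in inAGTuC and 1 in the outside batches, so that it reached the minimum of 50 only through the group in which it was higher, and it is given by these values alone. Of the 7 relatives of Ces1c, 2 were tested. Ces1d, 1 of these, is not counted as called. It had 0 reads in AGTuC, 23 in inAGTuC (5.28 CPM) and 41 in the outside batches. It thus reached the minimum of 50 only through the groups in which it was higher, and it is given by its values alone. Set against the floor of 3 counts over both AGTuC libraries, its level in inAGTuC was at least 12.3-fold higher. Ces1a had 1 read in AGTuC and the other 6 listed relatives had 0. No listed gene was called between the outside scGRO–seq batches and inAGTuC without a block or with batch as a block, and with batch as a random block Spp1 (log2 fold change −2.29), Pkd2 (−1.60) and Abcg2 (−1.47) were lower in the outside batches, with limma adjusted p-values of 0.0420, 0.0483 and 0.0481. That fit called 693 of the 14718 genes lower (4.71%) and 179 higher. Ces1g passed as higher in that fit, but it had 13 reads in inAGTuC, 0 in AGTuC and 1048 in the outside batches, so that it was tested only through the group where it was higher, and it is given by these values alone. In kept cells 92.6% of its window UMIs stood in 1 bin.

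Burst size was computed as 1 plus the UMIs per cell beyond the first, divided by a capture efficiency of 10%, over cells with at least 1 UMI in the window. With all UMIs it was 38.6 for Sparcl1, 21.5 for Ces1c, 20.3 for Camkmt, 6.54 for Mepe and 5.63 for Ripor3. They ranked 2, 6, 7, 27 and 30 among the 2468 genes, whose median was 1.75, and were among the 37 genes (1.50%) with a burst size over 5. As burst size chose the members, nothing follows from these ranks.

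Without the top bin the burst size was 1.00 for Sparcl1, Mepe, Camkmt and Ripor3, which means that no kept cell had more than 1 remaining UMI on any of these genes in the window. Over the whole gene span it was 7.23 for Camkmt and 1.77 for Mepe, and in the window Sparcl1 was at 2.88 in the 3647 cells that a UMI minimum alone kept and at 1.71 with all deposited reads, shared ones included. That of Ces1c was 1.62, from 69 UMIs in 65 cells, and it was 1.00 when both neighbouring bins were removed as well. The values of 1.00 in the window for the other genes rest on 10 UMIs for Sparcl1, 9 for Mepe, 22 for Camkmt and 31 for Ripor3. So few UMIs in the kept cells cannot show whether these genes burst. Removing the top bin of every gene lowered the median of the 2468 genes from 1.75 to 1.68. Counting UMIs of a cell that lay within 50 bp of each other as 1 gave 1.05 for Sparcl1, 1.04 for Mepe, 1.00 for Ces1c, 1.04 for Camkmt and 1.13 for Ripor3. Leaving out Exp260b gave 7.52 for Sparcl1, 1.62 for Ces1c, 1.69 for Camkmt and 1.00 for Mepe and Ripor3. In batch Exp260b alone Sparcl1 reached 60.1 and in Exp236, with 487 top-bin UMIs in 265 cells, 9.38.

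**Figure D3:**
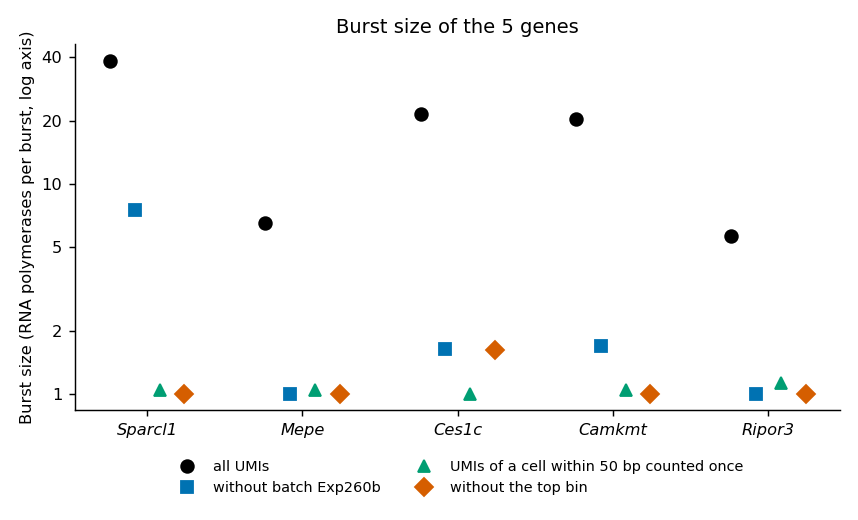
Burst size (RNA polymerases per burst, log-scaled vertical axis) of the 5 genes from all UMIs of the window, without batch Exp260b, with UMIs of a cell within 50 bp merged to 1, and without the top bin, each as 1 symbol. With all UMIs the values run from 5.63 to 38.6, and without the top bin they run from 1.00 to 1.62.

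Correlation between the members was computed as Pearson's r of the presence or absence of a UMI in the burst window over the 2518 kept cells. Cells share plates, batches and depth, so that r is a description with no p. Ces1c and Camkmt had r = 0.768, with UMIs of both in 408 cells, against 99.7 that the pooled shares of both genes give and 398 that their shares within each plate give. Sparcl1 with Ces1c had r = 0.611 and 465 cells against 465 from the plates, and Sparcl1 with Camkmt had 0.578 and 446 cells against 445. The lowest of the 10 pairs was Sparcl1 with Ripor3 at 0.399, and the median was 0.55. Over the whole gene span the median was lower, as given with the alternatives below.

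Within plates the 10 values of r fell to between −0.003 and 0.104, with a median of 0.03. The 0.104 was that of Ces1c and Camkmt. In Exp260b alone, where plates were pooled, r ran from 0.030 for Sparcl1 with Ces1c to 0.244 for Ces1c with Camkmt. Without Exp260b it ran from −0.011 to 0.057.

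Without the top bins the 10 pairs had r between −0.018 and 0.030. In this setting no pair was seen together in more than 1 cell, 1 cell each for Sparcl1 with Ces1c and for Camkmt with Ripor3. The counts behind these values were small, since only 9 to 65 cells retained a UMI, so the number of cells seen together that shares alone give was under 1 for every pair.

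**Figure D4:**
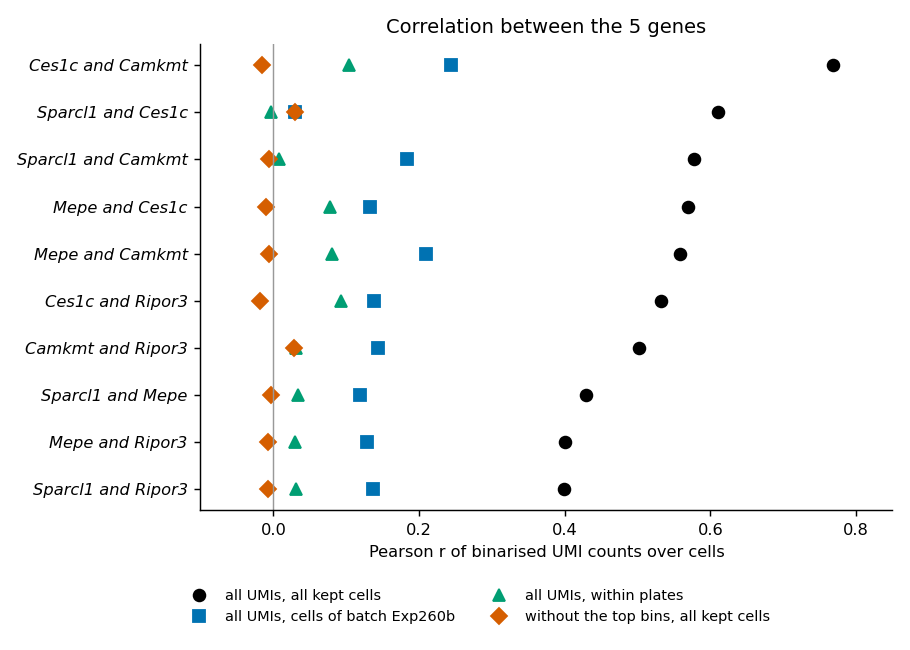
Pearson's r of UMI presence in the burst window over cells (horizontal axis) for the 10 pairs of the 5 genes (vertical axis), with 1 symbol each for all kept cells, the cells of batch Exp260b, within plates, and all kept cells without the top bins. Over all cells the points lie between 0.399 and 0.768, in Exp260b between 0.030 and 0.244, and in the other settings at 0.104 or below.

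Counting the genes per cell, with UMIs in the burst windows alone, gave the same picture. All 5 genes had a UMI in 108 kept cells and exactly 4 of them in 186, and all of these cells came from Exp260b. In that batch 1 of 530 cells had none of the 5 in the windows, whereas 1543 cells of the other batches had none. Over its whole span Camkmt alone had UMIs in 1394 kept cells, against 498 in its window. Without the top bins, 2 cells had 2 of the genes and none had more.

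The genes most like the members in their pattern over kept cells were chosen as the 3 with the highest r for each member. For Mepe they were Ces1c (0.569), Camkmt (0.558) and Gm36608 (0.477). For Camkmt they were Ces1c (0.768), Eef1akmt4-ece2, a readthrough gene (0.611), and Sparcl1 (0.578). Ces1c, Sparcl1 and Ripor3 likewise had only other members and Eef1akmt4-ece2 among their 3. Every partner named had over 95% of its own window UMIs in 1 bin, and over 85% of the UMIs of that bin in Exp260b. Within plates the correlations to these partners lay between −0.003 and 0.106.

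The letters at the 3′ ends were then measured genome-wide. This was done after the sequences had been seen. TACAGG precedes 0.0275% of the sense positions in the 14333 burst windows and occurs in 1.36% of their 50 bp bins, read on the sense strand alone. TACAG with any sixth base, which includes TACAGG, precedes 0.122% and occurs in 5.94%. With the members' top bins left out, 20.2% of all 3′ ends in Exp260b followed TACAGG, 10.5% in Exp263, 8.21% in Exp260, 3.01% in Exp246, 1.66% in Exp236 and 1.52% in Exp264a. In the 4 batches where the members had no top-bin UMI the share was 0.0239% to 0.0588%. For TACAG with any sixth base, which takes in the letters of Sparcl1, the share was 22.6% in Exp260b, 2.34% in Exp264a and 2.14% in Exp236. Of the 4 batches without top-bin UMIs, Exp208 had 1.28%, above the 0.122% of positions, and the other 3 had 0.132% to 0.249%.

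The 3 outside batches with member pile-ups had shares of 26.5% (Exp256), 22.1% (Exp263b) and 18.6% (Exp261). Exp230 and Exp234 had 3.38% and 2.16%, both above the 1.66% of Exp236, with 0 top-bin reads of the members in 89312 and 75663 reads, and the other 6 batches lay at 0.207% or less. Among inAGTuC libraries the share was 3.53% in Exp261, 0.364% in Exp234 and 0.0296% in Exp208. In AGTuC it was 0.00409%.

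In Exp260b, 59.8% of the reads were at most 20 bases long, and 30.7% of these ended at TACAGG against 4.59% of the longer reads. The pile-up of the members did not scale with the share of such ends alone. Per 1000 ends at TACAGG there were 14.4 top-bin reads of the 5 genes in Exp260b, 6.05 in Exp236, 2.40 in Exp260, 2.18 in Exp246, 2.02 in Exp264a and 0.537 in Exp263, all batches in which the members were chosen. Outside them there were 1.44 in Exp256, 1.39 in Exp263b and 0.678 in Exp261. These counts include Sparcl1, whose ends follow TACAGC and so are not among the ends at TACAGG. It gave 488 of the 512 top-bin reads in Exp236 and 3641 of the 7282 in Exp260b. The high place of Exp236 in this order thus rests on Sparcl1. The other genes had 9 (Mepe), 6 (Camkmt), 5 (Ces1c) and 4 (Ripor3) top-bin reads in Exp236, beside 84592 ends at TACAGG. In Exp260, with 55869 such ends, Camkmt, Ces1c and Mepe had 31, 27 and 7. In Exp263, where the share of ends was higher, they had 14, 4 and 5, and Ripor3 had 0 in both.

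**Figure D5:**
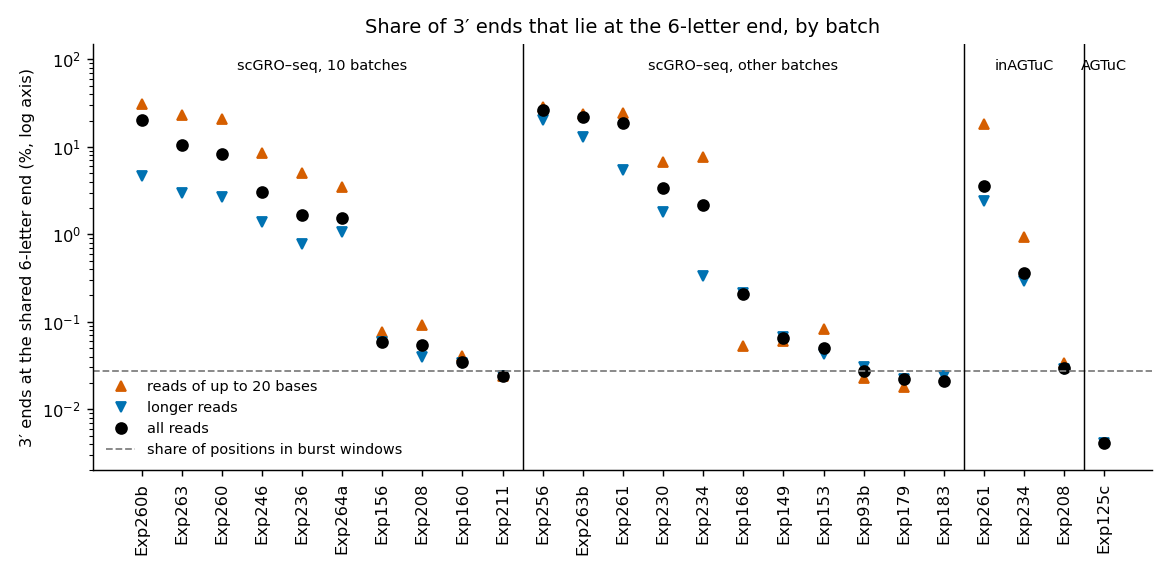
Percent of 3′ ends that lie directly behind the shared 6 letters (log-scaled vertical axis) in each batch along the horizontal axis, for all reads, reads of up to 20 bases and longer reads, members' top bins left out, with the share of such positions in burst windows (0.0275%) as a dashed line. Exp260b reaches 20.2% over all reads, and the batches where the members have no top-bin reads lie at 0.207% or less except Exp230 and Exp234 at 3.38% and 2.16%, while the bulk AGTuC batch Exp125c lies at 0.00409%, below the line.

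Libraries also differed in the length of the cell barcode, 10 or 12 bases. The 36 scGRO–seq libraries with top-bin reads of a member were all among the 47 with 10-base barcodes, where the share of ends at TACAGG ran from 0.0149% to 26.5% with a median of 2.25%. The 28 scGRO–seq libraries with 12-base barcodes had 0 top-bin reads in 2420607 reads and at most 0.235% of ends at TACAGG, and both AGTuC libraries had 12-base barcodes. According to the study's methods, one version of the adaptor carries the bases ACAGG behind the azide-bearing T at the end that is joined to the RNA. Exp208 and Exp211 held scGRO–seq libraries of both barcode lengths, and the shares there were 0.0149% to 0.0609% in the 5 with 10-base and 0.00834% and 0.0429% in the 2 with 12-base barcodes, with 0 top-bin reads in all 7. For TACAG with any sixth base the 10-base library of Exp208 had 1.79% and its 12-base library 0.286%. The 10-base library of Exp93b had a share of 0.0273% and 0 top-bin reads. Within these batches the 10-base barcode thus came without the pile-ups. Which version of the adaptor each library was made with is not given in the sources used here. The study describes barcodes of 10 to 12 bases and lists its adaptor sequences. Whether barcode length marks a version was not examined. Whether the adaptor end has a part in the shared letters was not tested.

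The members were not the only positions of this kind. Over the 10 batches, 196239 genomic positions following TACAG and any base had at least 1 read, with a median of 1 read, and 968 had over 100. The Sparcl1 position ranked 7 with 4270 reads, Ces1c 49 with 1530, Camkmt 53 with 1476, Mepe 259 with 384 and Ripor3 392 with 258. Of the 78 other genes with over 50% of their window UMIs in 1 bin, 31 had their top position behind TACAGG and 45 had over 50% of the bin in Exp260b. Among the 2385 remaining genes the top position followed TACAGG in 366 (15.3%), and 351 had over 50% of their top bin in Exp260b.

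Other pile-ups had different letters and a different spread over batches. Tomm20, a subunit of the mitochondrial import receptor, had 79.5% of its 2488 window UMIs in 1 bin, but its ends followed TTCAAA and 19.5% of the bin stood in Exp260b, against 86.0% (Sparcl1) to 98.0% (Ripor3 and Ces1c) for the members. Its burst size was 8.68, and 2.75 without the bin. Eef1akmt4-ece2 was like the members, with 97.1% of 2373 UMIs in 1 bin, ends behind TACAGT, 88.8% of the bin in Exp260b and a burst size of 22.9 that became 1.46 without it. Top-bin reads of Tomm20 had a mean length of 54.5 bases, and those of Eef1akmt4-ece2 of 15.2.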

How the data were processed

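The scGRO–seq, inAGTuC and AGTuC libraries were deposited as 1 BED file each. In the authors' processing, adaptors were trimmed with Cutadapt, reads were demultiplexed with Flexbar, mapped to mm10 with Bowtie2 after removal of ribosomal reads, and collapsed by UMI and coordinates with UMI-tools. Each deposited line is therefore read as 1 molecule, save lines that libraries shared, and its score column holds the mapping quality as the authors deposited it. Intervals and floors cover counting error only.

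The 3′ end of each read was assigned to RefSeq genes of GRCm38 on the sense strand. A read sharing position, strand, barcode and UMI with another library was dropped, and 1 scGRO–seq library that repeated an inAGTuC library was left out, which left 7043 to 4755740 reads per library. Cells were kept with at least 1000 UMIs and 750 features (genes and 1670 enhancers, 1250 bp to each side) in libraries with at least 24 such cells. Burst size and binarised Pearson correlations used genes over 11000 bp and 10000 bp behind the first 500 bp. Doublets were not treated.

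Gene counts were compared with limma 3.58.1 (voom, lmFit, eBayes, library totals as scaling, genes with at least 50 reads) in R 4.3.3, and mapping quality by an exact sign-flip test over batches with Benjamini-Hochberg adjustment, in Python 3.11.15 with pandas 2.3.3, numpy 2.4.6, scipy 1.17.1 and matplotlib 3.10.9. Both tests were checked on simulated data, that of mapping quality with 10 batches for every gene, more than any member had. The members, marker and neighbour lists were chosen with earlier results of these data known. Named genes were the members, the 3 highest correlation partners of each seen together in at least 10 cells, the 3 other pile-up genes with most UMIs (1 of which is not reported here), and examples from the fixed lists. Alternatives changed the reads, cell filter, window, bins, mapping quality, capture efficiency, removed bins, correlation, scaling, filter on low counts, test and libraries, with batch as a block added after the data were seen. Bcas4 had no entry under that name and was not analysed here.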

Additional observations from a re-analysis of the deposited data

Results flagged for a closer look

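A sample that stood far apart from the others of its group, by Dixon's criterion, was found in 6 of 18 groups examined. Chance gives about 1 in 20, but the count is not set against that rate, since the groups share libraries, 3 of the 6 are groups whose other libraries were at 0, where any read is enough, and 1 is the share of TACAGG, letters taken from the members, in the batches that chose them. The 18 also hold the top-bin values of the members and the share of TACAGG over the plates of Exp260b, whose cells also chose the members. No plate stood apart in these groups. A further 5 groups, the top-bin values of the members in the 10 batches, come from the cells and UMIs that chose the members. A sample stood apart in all 5, which describes that choice.

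Among the 10 batches, Exp260b stood apart for the top-bin UMIs per 1000000 UMIs of the batch for all 5 genes. The value was 1457 for Sparcl1 (next batch 111), 594 for Ces1c (next 47.4), 576 for Camkmt (next 64.1), 163 for Mepe (next 13.9) and 124 for Ripor3 (next 2.15). The same batch was highest in the share of 3′ ends behind TACAGG, at 20.2% against 10.5% in the next.

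Among the 4 inAGTuC libraries, Exp261_c16 was the only one with top-bin reads of Ces1c (2.06 CPM), Camkmt (3.44) and Ripor3 (0.687), the other 3 being at 0. Its share of ends behind TACAGG was 3.53%, against 0.364% in the next library. Those top-bin values rest on 3, 5 and 1 reads of a library deposited under both assays. Library Exp234_c11 was highest in sense reads of Sparcl1 outside the top bin, with 9.58 CPM against 3.65 in the next, from 14 reads. The cause of these differences was not tested.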

How the results depend on the processing

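Of the values recomputed under the alternatives, 362 kept their direction and side of the threshold or moved by less than their spread, 47 moved and 3 changed direction. Over the whole gene span, the top-bin share of Camkmt was 43.2%, burst size without the top bin was 1.77 for Mepe, 7.23 for Camkmt and 1.15 for Ripor3, and the median r was 0.37, or −0.0096 without the top bins. With bins shifted by 25 bp, burst size without the top bin was 1.00 for Ces1c. At a capture efficiency of 5%, burst size was 76.2 for Sparcl1, 12.1 for Mepe, 42 for Ces1c, 39.6 for Camkmt and 10.3 for Ripor3, with 2.23 for Ces1c without its bin. At 20% it was 19.8 for Sparcl1, 3.77 for Mepe, 11.2 for Ces1c, 10.6 for Camkmt and 3.32 for Ripor3. Merging the UMIs of a cell that stood within 50 bp gave 1.05, 1.04, 1.00, 1.04 and 1.13 for Sparcl1, Mepe, Ces1c, Camkmt and Ripor3, and 1.00 for Ces1c without its bin. With both neighbouring bins removed too, Ces1c was at 1.00 and the median r without the bins was −0.0034. The median r was 0.11 within batches and 0.033 within plates.

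Leaving out each batch in turn, burst size ran from 7.52 to 51.6 for Sparcl1, 1.00 to 6.75 for Mepe, 1.62 to 22.1 for Ces1c, 1.69 to 21.1 for Camkmt and 1.00 to 5.80 for Ripor3, and 1.00 to 1.66 for Ces1c without its bin. The top-bin share of Ripor3 ran from 31.6% to 91.9% and the median r from 0.034 to 0.56. The lowest value was that without Exp260b in each case. The UMI minimum alone (3647 cells) gave Sparcl1 without its bin 2.88, and all deposited reads (3044 cells) gave 1.71 and, for Camkmt, 1.34. With all deposited reads the mapping quality difference of Camkmt was −0.57.

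For AGTuC against inAGTuC, 3160 genes (1840 higher, 1320 lower) were called, 877 by limma-trend, and 559 to 3073 with 1 library left out (559 and 1200 without an AGTuC library, the lone one assumed to vary like the rest, 1890 without the third inAGTuC library), and 1310 with batch as a random block, added after the data were seen. Upper quartile scaling gave 884 higher and 1771 lower and moved the median of all genes from 0.80 to 0.09. With no minimum count, Mepe and Ces1c entered and passed as lower, but with 0 reads in AGTuC they were tested only through the groups where they were higher. For the outside batches, 0 genes became 240 by limma-trend, 3 by upper quartile scaling, 24 with batch as a block and 872 with batch as a random block, and the log2 fold change of Camkmt was −0.049 without its bin, and −0.013 to 0.44 with 1 library left out, the lowest without the third inAGTuC library. The causes were not tested. The labels give no replicate numbers, and the pairing used was that of batch, which scGRO–seq and inAGTuC share in Exp234 and Exp261. Depth limits the burst sizes and pair correlations without the top bins, where 9 to 65 cells held a UMI, and the inAGTuC bins, which rest on at most 6 reads.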

Other observations

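Outside the members, the reads of Ces1g also stood in 1 bin, with other letters and another spread over batches. Ces1g, a carboxylesterase gene beside Ces1c, was at 9.52 CPM per kb in the scGRO–seq batches outside the 10, where its other 6 listed relatives lay between 0.0680 and 0.409. It was at 0.0857 CPM per kb in inAGTuC and had 0 reads in AGTuC. In kept cells of the 10 batches 92.6% of its 135 window UMIs stood in 1 bin, with ends behind GACAGT, and 3.20% of that bin was in Exp260b.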
